A study of Mus musculus with 7 samples.

Results

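The circadian clock genes described here were 10 core clock and clock-output genes, *Arntl*, *Clock*, *Per1*, *Per2*, *Per3*, *Cry1*, *Cry2*, *Nr1d1*, *Dbp* and *Bhlhe40*, out of 21755 protein-coding genes on the mouse autosomes and chromosome X. They were chosen by name, with earlier results of these data known. The region read for each was the gene body of the GENCODE annotation plus 50 kb on each side (the locus). Binding was measured by ChIP-seq (chromatin immunoprecipitation and sequencing) in mouse ovaries, using the mouse monoclonal antibody PPZ0506 against estrogen receptor beta (ERβ), a ligand-regulated transcription factor encoded by *Esr2*. There were 3 ERβ ChIP libraries and 2 input libraries, the latter made from sheared chromatin without the antibody step. All 5 came from C57BL/6J females that carry and express the endogenous receptor, with no transgene and no treatment given in the labels. Per the methods of the study, each replicate pooled ovaries of several mice, which ranged from juvenile to adult and were not collected at a specific estrus stage. The time of day of collection is not given in the sources used here. ChIP samples from ovaries with deleted ERβ were not analysed here, so antibody signal that does not depend on the receptor cannot be told apart from receptor binding.

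The clock runs in nearly every cell as a loop of transcription and repression. BMAL1 (*Arntl*) and CLOCK bind DNA as a pair at E-boxes and activate the *Per* and *Cry* genes, whose proteins return to the nucleus and repress the pair. REV-ERBα (*Nr1d1*) represses *Arntl* through the RORE element, DBP activates genes through D-boxes, and BHLHE40 (also called DEC1) competes at E-boxes. In the ovary ERβ is found mainly in granulosa cells, and clocks of the follicle are known to bear on the timing of ovulation. Estrogen receptors bind the estrogen response element (ERE), a palindrome of the half-sites GGTCA and TGACC with 3 bases between them.

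A site was a 200-bp window in which the ChIP signal was over 4 times the mean of both inputs in at least 2 of the 3 ChIP libraries, with the input set to no less than its genome mean of 0.368. The sites were chosen on this fold, so their folds are a description and carry no test. The 10 loci, 1.4 Mb in all, held 3 sites, 1 each in the loci of *Cry2*, *Per2* and *Arntl*. The other 7 loci held none. Over all protein-coding genes, 27.5% of loci held at least 1 site, so that 3 of 10 was near the background. The mean number of sites per locus was 0.3 for the clock genes and 0.412 for all protein-coding genes, and the density was 2.14 sites per Mb in the clock loci and 1.9 per Mb over the genome, which held 4869 sites. On a fixed grid of 200-bp bins, 2 of 6968 bins in the clock loci passed the rule (0.0287%), beside 0.0455% of all bins. None of the 3 sites lay at the promoter of a clock gene. The sequences of the 3 sites follow because they show the ERE-like stretches on which the description turns, together with that of the highest window in the *Cry2* promoter, which was not a site. All are on the plus strand of mm10, and the capitals mark the stretch of 13 bases with the fewest mismatches to the ERE over its 10 fixed bases.
*Cry2* locus site, chr2:92371411-92371610: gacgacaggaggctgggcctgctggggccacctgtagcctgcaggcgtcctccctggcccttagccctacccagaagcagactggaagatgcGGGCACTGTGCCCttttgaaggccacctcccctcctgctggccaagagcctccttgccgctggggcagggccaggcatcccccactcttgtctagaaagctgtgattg
*Per2* locus site, chr1:91484201-91484400: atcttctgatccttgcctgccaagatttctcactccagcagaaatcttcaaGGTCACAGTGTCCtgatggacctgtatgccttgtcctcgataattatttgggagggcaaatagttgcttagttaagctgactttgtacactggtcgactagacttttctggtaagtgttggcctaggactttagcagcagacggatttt
*Arntl* locus site, chr7:113263231-113263430: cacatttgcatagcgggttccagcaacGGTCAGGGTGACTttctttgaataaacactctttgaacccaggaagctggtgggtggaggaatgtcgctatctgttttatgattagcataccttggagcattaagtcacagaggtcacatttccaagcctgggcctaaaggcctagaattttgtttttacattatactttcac
*Cry2* promoter window, chr2:92434291-92434490: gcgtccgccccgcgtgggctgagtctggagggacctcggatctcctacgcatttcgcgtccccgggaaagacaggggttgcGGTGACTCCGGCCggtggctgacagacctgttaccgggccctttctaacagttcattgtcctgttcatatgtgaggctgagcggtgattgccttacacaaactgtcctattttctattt

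The *Cry2* locus held by far the strongest window of the 10. *Cry2* encodes a cryptochrome, one of the repressors that closes the loop. At this site the signal was 9.07, 12.1 and 15.7 in ChIP replicates 1, 2 and 3, against 0.871 and 1.17 in Input replicates 1 and 2. Every ChIP library stood above both inputs, and the folds over input were 8.88, 11.8 and 15.3 (12 ± 3.22, SD, n = 3). Among the 4869 sites of the genome, 85.2% had a lower mean fold. The site lay 62.5 kb downstream of the 5′ end of *Cry2*, outside the gene, and 0.454 kb upstream of a start of *Large2*, a glycosyltransferase gene, which was the nearest protein-coding start. It was thus a promoter site of *Large2* by position. The region over the threshold spanned 520 bp, and the median over the genome was 420 bp.

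The *Per2* locus site was weaker. PER2 is a repressor that pairs with the cryptochromes. The ChIP signal was 2.22, 2.42 and 3.2 in the 3 replicates and 0.524 and 0.51 in the inputs, with no overlap between the groups. The folds were 4.3, 4.68 and 6.18 (5.05 ± 0.998, SD, n = 3). This site lay 25 kb upstream of *Per2*, in the second exon of the non-coding RNA *Gm28382*. Its nearest protein-coding start was that of *Traf3ip1*, a gene of ciliary transport, 10.3 kb away, so it too lay nearer to another gene than to the clock gene.

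The *Arntl* locus site was the only one inside a clock gene, in intron 3 of 20 of *Arntl*, 55.9 kb from its 5′ end. The ChIP signal was 0.4, 1.48 and 1.64 in replicates 1, 2 and 3, and the input signal 0.24 and 0.403. Replicate 1 was close to the inputs, with a fold of 1.09, while replicates 2 and 3 had folds of 4.01 and 4.45 (3.18 ± 1.83, SD, n = 3). Both of these folds were just over the threshold, and the mean input, under its genome mean, was replaced by it. Replicates 2 and 3 also share a track-name prefix that replicate 1 and Input replicate 1 lack, so the split among the ChIP libraries followed the naming of the tracks, and the part of that difference in the result was not tested. Only 0.246% of the sites of the genome had a lower mean fold. When each ChIP library was set over the input of its own name group, the *Arntl* site was lost. The rule then called 5 sites, all in the loci of *Cry2* and *Per2*.

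Sites were also called from 2 ChIP libraries at a time, and the fold was read in the third, with the inputs shared. The 3 sites were already known from all 3 libraries. Their held-out folds thus largely repeat the values above and are not independent support. At the *Cry2* locus the held-out fold was 8.88, 11.8 and 15.3 in replicates 1, 2 and 3. At the *Per2* locus it was 4.26, 4.65 and 6.18. The *Arntl* locus was called only from replicates 2 and 3, and its held-out fold in replicate 1 was 1.09. Over the genome, 74.4%, 93.4% and 87.6% of sites were over 4-fold in the held-out replicate 1, 2 and 3.

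**Figure D1:**
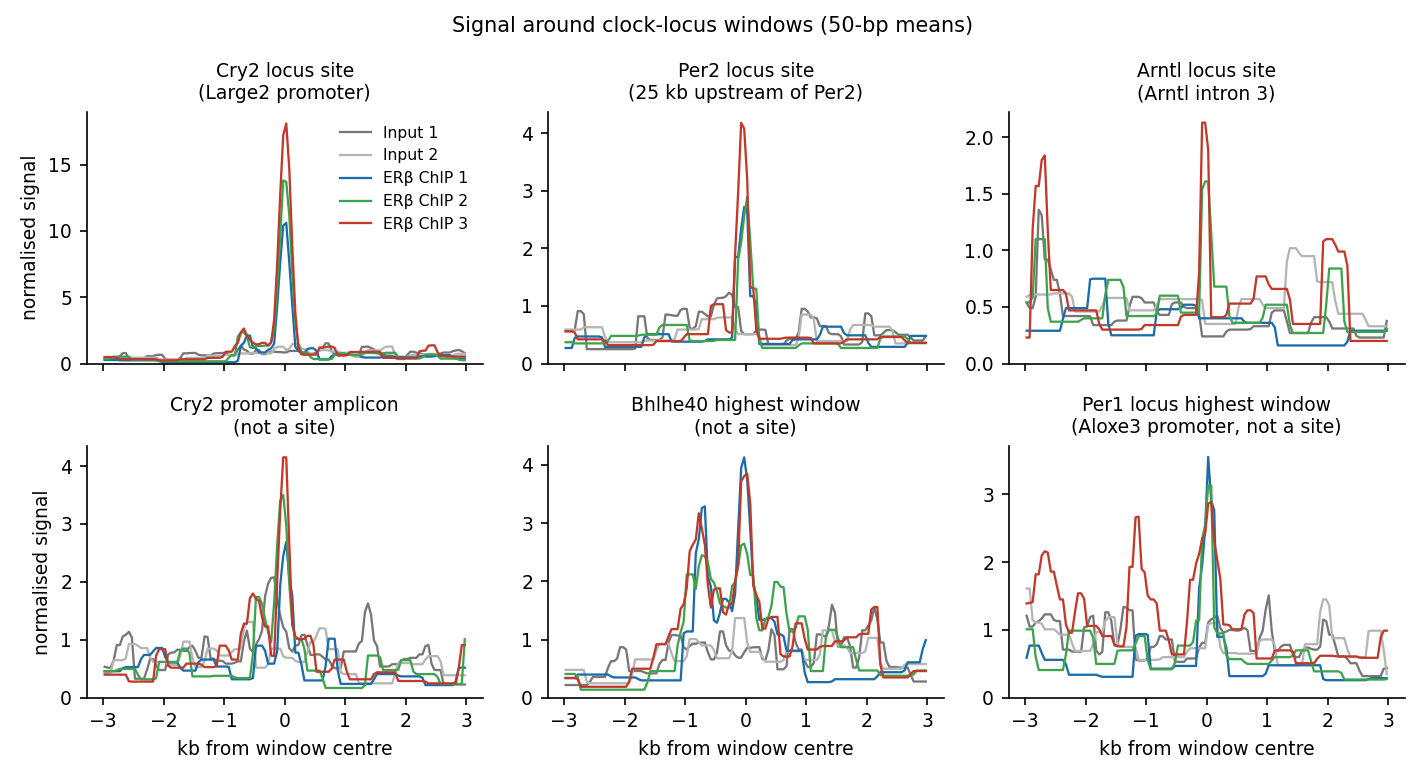
Normalised signal of the 3 ERβ ChIP and 2 input libraries (y axis, own scale in each panel) in 50-bp steps within 3 kb of the centre of 6 windows of the clock loci (x axis, kb). At the *Cry2* locus site all 3 ChIP lines rise to a narrow central maximum far above both inputs, with a smaller rise to its left. At *Per2* they rise to a lower central maximum, and at *Arntl* the line of replicate 1 stays among the inputs. The lower panels show windows that did not pass the rule but where all 3 ChIP lines have a maximum at the centre. Those of *Bhlhe40* and *Per1* were chosen as the highest of their loci.

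The profiles around these windows showed a narrow central maximum at the sites of *Cry2* and *Per2*, and at *Cry2* a smaller second rise to one side in all 3 ChIP libraries. They also showed narrow ChIP maxima at 3 windows under the threshold, in the *Cry2* promoter, upstream of *Bhlhe40* and in the *Per1* locus. The sites and the *Bhlhe40* and *Per1* windows were chosen on their fold, so a central maximum there follows from that choice. The *Cry2* promoter window was placed by the primers of the study. The highest windows of *Clock*, *Cry1*, *Dbp*, *Per3* and *Nr1d1* were not drawn.

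The loci without a site had highest windows with mean folds from 1.87 to 3.41. These windows were chosen on their fold, so their standing above the inputs is a description and carries no test. *Bhlhe40*, the E-box repressor, came nearest to the rule among the genes whose highest window was next to the gene itself. That window, chr6:108659471-108659670, lay 1.06 kb upstream of the *Bhlhe40* start, at the end of the non-coding RNA *Gm17055*. Its ChIP signal was 3.68, 2.46 and 3.68, and its input signal 0.798 and 1.12. Every ChIP value was above both inputs, and the folds were 3.84, 2.57 and 3.83 (3.41 ± 0.733, SD, n = 3). No library passed 4-fold there. With Input replicate 1 as the only input the highest mean fold was 4.24 and the locus held a site.

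In the *Per3* locus the highest window had folds of 4.64, 2.77 and 2.79 (3.4 ± 1.07, SD, n = 3), so that 1 of 3 libraries was past the threshold. It lay 42.2 kb upstream of *Per3*, in intron 12 of 24 of *Camta1*. PER3 is the third period protein. In the *Nr1d1* locus the folds were 2.56, 2.24 and 5.08 (3.29 ± 1.56, SD, n = 3), again with 1 library past the threshold, here replicate 3. This window lay in intron 2 of 9 of *Thra*, the thyroid hormone receptor gene, whose end overlaps that of *Nr1d1* on the other strand.

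The highest window of the *Per1* locus was the most even. *Per1* encodes the first period protein. The window lay 30.3 kb downstream of the 5′ end of *Per1*, outside the gene, and 0.405 kb upstream of *Aloxe3*, an epidermal lipoxygenase gene. The ChIP signal was 2.73, 2.79 and 2.63, the input signal 0.973 and 0.909, and the folds were 2.9, 2.96 and 2.79 (2.88 ± 0.0852, SD, n = 3). All 3 libraries thus stood above both inputs and under the threshold.

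The remaining loci had no window that stood out in all libraries. *Clock*, the partner of BMAL1, had its highest mean fold, 2.08 ± 0.856 (SD, n = 3), in intergenic sequence 16.1 kb from the start of *Tmem165*. *Cry1*, the other cryptochrome, had 1.99 ± 1.24 at 26.7 kb upstream of its start, where the folds were 1.36, 1.2 and 3.42. *Dbp*, the D-box activator, had the lowest value of the 10, 1.87 ± 1.36, in intron 2 of 6 of the sulfotransferase gene *Sult2b1*, where replicate 2 alone was high with 3.42. The median of the highest mean fold over the 10 loci was 3.27, and over all protein-coding loci it was 2.35. The clock loci had a median length of 136 kb and all loci one of 117 kb. By this value *Dbp* stood at percentile 12.9 of all protein-coding loci, *Cry1* at 24.2, *Per2* at 79.3 and *Cry2* at 94.5.

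**Figure D2:**
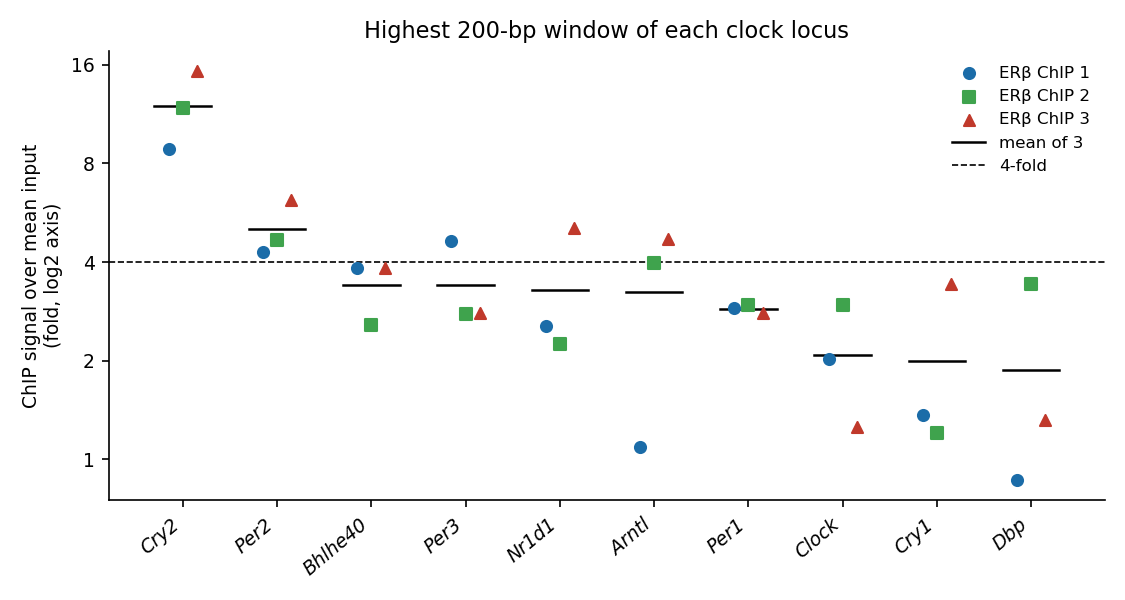
Fold of ChIP signal over the mean input (y axis, log2 scale) at the window of highest mean fold in each clock locus, by ChIP library, with the mean of 3 as a bar and the 4-fold threshold as a dashed line. All 3 libraries are above the line in the loci of *Cry2* and *Per2*. At *Arntl* the window of highest mean fold, 10 bp from the site, has 1 library above the line, and at *Per3* and *Nr1d1* 1 library is above it.

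The rule turns on the second highest of the 3 folds, and the values on both sides of the threshold show how near the loci came. Just inside were the *Arntl* site with a second highest fold of 4.01 and the *Per2* site with 4.68. Just outside were *Bhlhe40* with 3.83 and *Per3* with 3.59. The others had at most 2.91 (*Per1*), down to 1.82 (*Dbp*). With a threshold of 3-fold in place of 4-fold, 10 sites were called in 5 loci, those of *Bhlhe40* and *Per3* being added. The share of all protein-coding loci with a site at 3-fold was not counted, so this number has no background beside it.

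The loci were also read by part. The promoter was taken as 1 kb upstream to 100 bp downstream of the 5′ end of the gene. The highest mean fold within it was 3.12 ± 0.644 (SD, n = 3) for *Cry2* and 2.26 ± 0.248 for *Bhlhe40*. For the other 8 promoters it ran from 0.706 for *Nr1d1* to 1.32 for *Per3*. In the gene bodies it ran from 1.16 for *Dbp* to 3.25 for *Arntl*. The body of *Nr1d1* had 2.98 ± 1.31, with folds of 1.86, 2.68 and 4.42, of which the last was past the threshold.

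**Figure D3:**
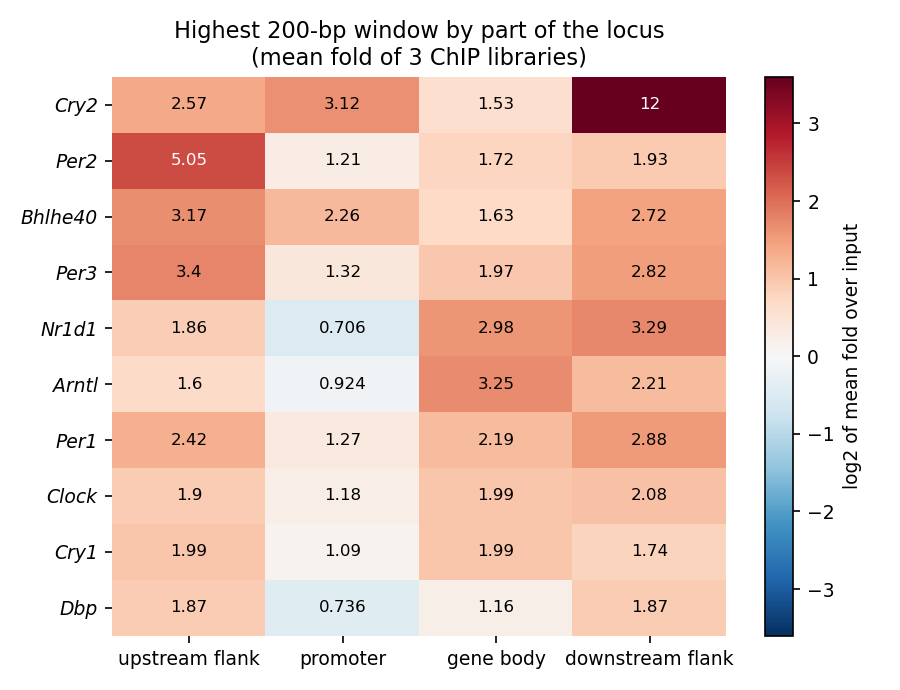
Highest mean fold over input of the 3 ChIP libraries (numbers, with colour on a log2 scale) in 4 parts of each clock locus. Windows that span the border between parts are not shown, which leaves out the highest *Bhlhe40* window. The promoter, the shortest of the parts, holds the lowest of the 4 values in 8 loci and not in those of *Cry2* and *Bhlhe40*.

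The study designed an amplicon in the *Cry2* promoter. Its primers matched mm10 at 1 place, chr2:92434325-92434420, 96 bp long and centred 0.33 kb upstream of the *Cry2* 5′ end. Over the amplicon the ChIP signal was 2.58, 3.24 and 4.19, and the input signal 1.17 and 0.702. All ChIP values were above both inputs. The folds were 2.75, 3.45 and 4.46 (3.55 ± 0.86, SD, n = 3), so that replicate 3 alone was over 4-fold. In the 200-bp window around it the folds were 2.41, 3.12 and 3.74, and no library passed. The rule used here reads normalised signal and is not the peak calling of the study, which used HOMER. Failing it does not show that the promoter was unbound. The mean fold over the amplicon depended on the input used. It was 2.85 with Input replicate 1 alone and 4.75 with Input replicate 2 alone. The *Cry2* promoter and the *Large2* promoter site were separate maxima, on opposite ends of the gene.

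Whether the promoters as a whole held more ChIP than input signal was tested with limma on log2(signal + 0.5), with Benjamini-Hochberg adjustment over all 21064 promoters that passed a mean signal of 0.1. All 10 clock promoters passed this filter. None was higher and none was lower in ChIP than in input. Of all promoters 0.076% were higher and 0.0237% lower. At an unadjusted p under 0.05, 0 clock promoters were higher and 3 were lower, where the shares over all promoters were 1.37% and 11%. *Bhlhe40* had the largest difference upwards. Its promoter signal was 1.07, 1.41 and 1.24 in ChIP and 0.781 and 0.71 in input, with no overlap between the groups, and ChIP exceeded input by 0.48 ± 0.27 on the log2 scale (SE, limma adjusted p = 0.441). *Cry2* had 0.913, 1.37 and 1.47 in ChIP against 1.16 and 0.786 in input. These groups overlapped, and the difference was 0.24 ± 0.29 on the log2 scale (SE, limma adjusted p = 0.713).

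The 8 other promoters had negative log2 fold changes. *Dbp* had 0.36, 0.547 and 0.733 in ChIP and 1.2 and 0.918 in input, so that every ChIP value was below both inputs, and the difference was -0.58 ± 0.21 on the log2 scale (SE, limma adjusted p = 0.248). *Per1* showed the same order, with 0.397, 0.527 and 0.711 in ChIP, 0.935 and 0.83 in input and -0.41 ± 0.20 (SE, limma adjusted p = 0.379). *Nr1d1* had 0.395, 0.589 and 1.15 in ChIP and 1.39 and 1.08 in input, where replicate 3 lay between the inputs, and -0.56 ± 0.24 (SE, limma adjusted p = 0.331). *Per3* had 0.348, 0.44 and 1.38 in ChIP, so that replicate 3 was above both inputs (0.978 and 0.829) and the others far below. The values of *Arntl*, *Clock*, *Per2*, *Per3* and *Cry1* ran from -0.16 to -0.34 on the log2 scale. The median was -0.27 over the clock promoters and -0.13 over all promoters, so that the shift towards input was general. ChIP replicate 3 decided the count: without it, the promoters of *Per1*, *Per3*, *Cry1*, *Nr1d1* and *Dbp* were lower in ChIP (limma, adjusted p from 0.000784 to 0.0224), beside 13.5% of all promoters. An exact permutation test of 3 libraries against 2 cannot go below p = 0.1 for a single promoter.

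**Figure D4:**
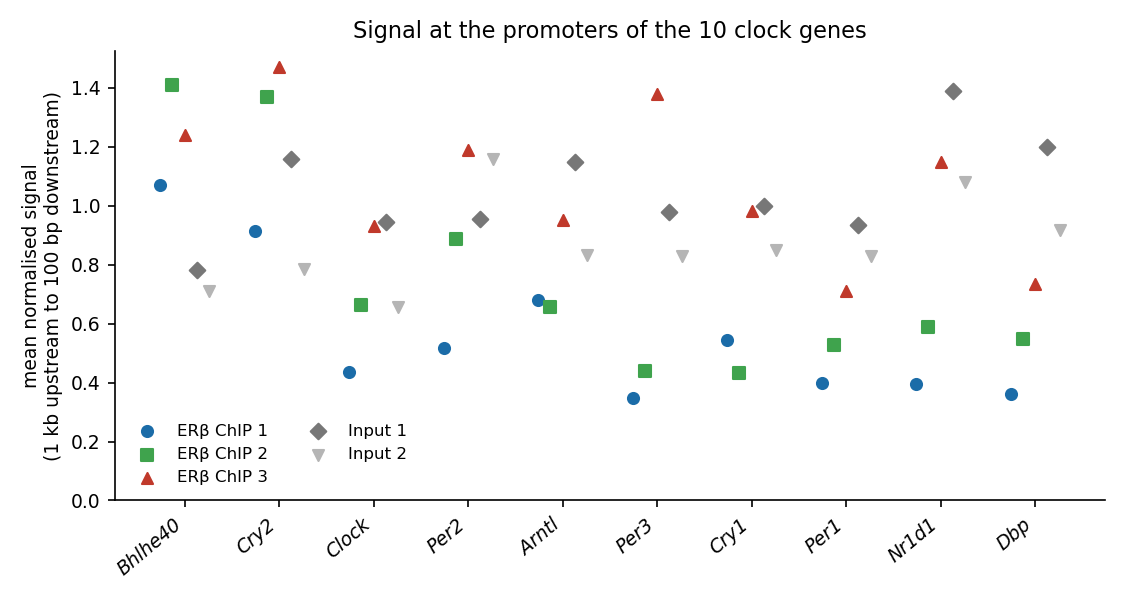
Mean normalised signal (y axis) over the promoter of each clock gene in the 3 ERβ ChIP and 2 input libraries, ordered by log2 fold change. At *Bhlhe40* the 3 ChIP values are above both inputs, and at *Per1* and *Dbp* they are below both.

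Windows of 1 kb were tested in the same way across the genome, with 1383 windows of the clock loci among 2430659. In the clock loci 1 window was higher in ChIP and 0 were lower, at a genome-wide background of 0.0957% higher and 0.00267% lower. The window was the one that holds the *Cry2* locus site. Its signal was 2.98, 3.98 and 4.99 in ChIP and 0.842 and 1.03 in input, and the difference was 1.62 ± 0.24 on the log2 scale (SE, limma adjusted p = 0.000112). Without the filter on low signal the adjusted p was 0.383, and under the other alternatives it was at most 0.0252. The window rests on the same libraries as the site and is not independent of it. The window of the *Bhlhe40* maximum had 2.04, 1.81 and 2.06 in ChIP and 0.828 and 0.865 in input, again without overlap. The difference was 0.87 ± 0.20 on the log2 scale (SE, limma adjusted p = 0.0667), and the adjusted p ran from 0.000122 with the GC content removed to 1 when either input was left out. The windows of the *Per2* and *Arntl* sites had 0.58 ± 0.17 and 0.32 ± 0.16 on the log2 scale and did not pass (limma adjusted p = 0.52 and 0.953). These windows and that of *Bhlhe40* are named because they hold 200-bp windows chosen on fold in the same libraries. Their separation from input and their p-values are thus not independent of that choice. The window of the *Cry2* amplicon had 0.26 ± 0.20 (SE, limma adjusted p = 0.969).

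The bulk of the clock loci leaned the other way. Before adjustment, 18 windows had p under 0.05 with more ChIP than input signal and 143 with less (1.3% and 10.3%), where the shares over the genome were 1.9% and 3.33%. The median log2 fold change was -0.11 in the clock loci and -0.01 over the genome. The loci of *Per1* and *Nr1d1* had the lowest medians, both -0.20, and *Clock* the highest, -0.04. With the GC content removed from each library, 24 windows were higher and 77 lower (1.74% and 5.57%), and the median was -0.05. Over the genome the shares were then 2% and 2.44%, and the median was -0.0072. *Per1* had 30 of its 115 windows lower at that unadjusted p, *Nr1d1* 25 of 107, *Per2* 24 of 136 and *Cry2* 21 of 130, while *Cry1* and *Bhlhe40* had 3 each.

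The sequences printed above show where the ERE-like stretches lay. Substitutions are counted from 1 at the 5′ end of the ERE, with the base of the ERE first. The *Per2* locus site had 1 mismatch (A11T), and so had the *Arntl* site (C13T). The *Cry2* locus site had 2 mismatches (T3G and A11C), placed symmetrically so that the stretch remained a palindrome in its outer bases, and it was centred 2 bp from the centre of the window. In the *Per2* site it was 43 bp and in the *Arntl* site 67 bp from the centre. An ERE with at most 2 mismatches was present in 3 of 3 sites, in 67.9% of all sites and in 6.68% of all 200-bp bins of the genome. With at most 1 mismatch these were 2 of 3, 33% and 0.529%, and no clock site held the full palindrome, which 6.33% of all sites did.

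The windows under the threshold varied more. The highest windows of *Per1* (A5C) and *Per3* (G10C) held a stretch with 1 mismatch. Those of *Nr1d1* and *Bhlhe40* had 2, that of *Dbp* 3, and those of *Clock* and *Cry1* 4. The *Bhlhe40* stretch is shown with 8 bases on each side because its 13 bases were the same as in the *Cry2* locus site, although the flanks differed.
*Bhlhe40* window, chr6:108659572-108659584 in capitals: ggaacgccGGGCACTGTGCCCggtatctt
*Per1* locus window, chr11:69125508-69125520 in capitals: tcttccctGGTCCTTGTGACCtatatctt
*Per3* locus window, chr4:151086852-151086864 in capitals: cgatgcagGGTCATCTTCACCagagctgt
The *Cry2* promoter window held nothing closer than 3 mismatches (C4G, T9C and A11G). It had a GC content of 57%, compared with 64.5% in the *Cry2* locus site, 70% in the *Bhlhe40* window and 44.5% and 43.5% in the sites of *Per2* and *Arntl*.

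Other motifs were searched on both strands. The NR5A motif (TCAAGGTCA or CCAAGGTCA), bound by SF-1 and LRH-1, was present in the *Per2* site alone, where it overlapped the first half-site of the ERE-like stretch, and 7.15% of all sites and 0.693% of all bins held it. The highest windows of *Per3* and *Nr1d1* held it too, apart from the ERE-like stretch. The GATA motif (AGATAA or TGATAA) was in 0 of 3 clock sites, in 29.7% of all sites and in 24.1% of bins. The elements of the clock itself were in no clock site. The E-box CACGTG was in 2.49% of all sites and 1.95% of bins, the D-box TTANGTAA in 1.56% and 2.53%, and the RORE in 1.54% and 0.348%. In RefSeq promoter sequences of GRCm38.p6, from 250 bases before to 50 after each start, 8 of the 10 clock genes matched with 12 promoters. *Per2* and *Bhlhe40* had no match by symbol. The E-box was present at *Cry1* and *Per1* (7.2% of all 32619 promoters), the D-box at *Per3* (2.25%) and the RORE at *Arntl* (0.386%). An ERE with at most 2 mismatches was present at *Per3* alone among them, and 11.1% of all promoters held one.

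The other genes of the pathway were read by the same rule. They were 20 activator paralogs, repressors, RORE receptors, D-box factors, kinases, ubiquitin ligases and outputs, and 11 of them held 15 sites in 3.66 Mb, or 4.1 per Mb. This was 11 of 20 loci beside the 27.5% of all protein-coding loci. Without ChIP replicate 2 or replicate 3 the count was 9. The median of the highest fold was 5.02, above the 3.27 of the 10 clock genes. This list too was chosen with earlier results of these data known, so its count describes these genes alone. Its loci ran from 104 kb (*Ciart*, 2 sites) to 834 kb (*Rora*, 1 site), beside a median of 117 kb for all protein-coding loci. No test was made of either difference.

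Among the paralogs of the clock genes, *Nr1d2*, which encodes REV-ERBβ, had the strongest site (10.5 ± 2.96, SD, n = 3). This site lay at the start of *Rpl15*, a ribosomal protein gene. *Bhlhe41* (DEC2) had a site of 9.86 ± 0.95 at 17.9 kb downstream of its start, in intergenic sequence where it was the nearest protein-coding gene. *Arntl2* had sites of 7.44 ± 3.12 and 7 ± 1.17, both nearest to *Smco2*. The paralogs *Nr1d2* and *Arntl2* thus resembled *Cry2*, in that their sites lay by a neighbour.

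Of the D-box genes, *Tef* had a site of 8.27 ± 4.08 within 0.127 kb of one of its own starts, with a fold of 13 in replicate 3 and 6.02 in replicate 2. The D-box repressor *Nfil3* had one of 8.24 ± 1.26 at 27.8 kb upstream. *Rora*, a RORE activator, had one of 4.9 ± 0.643 in its intron 5 of 10, 716 kb from its 5′ end. The nearest protein-coding start to that site was that of *Ice2*, 27.7 kb away. The ubiquitin ligase gene *Btrc* had one of 5.15 ± 0.394 in its intron 1 of 14.

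The deubiquitinase gene *Usp2*, a clock output, had a site of 5.61 ± 3.03 at 0.148 kb from one of its starts and one of 5.89 ± 2.25 by *C1qtnf5*. *Ciart*, a repressor of the CLOCK and BMAL1 pair, had 7.56 ± 1.92 in an intron of *Mrps21* and 5.64 ± 0.0379 by *Car14*. *Timeless* had 5.86 ± 2.23 by *Apof*. *Nampt*, the gene of NAD salvage, had 6.21 ± 1.75 outside the gene, 65.3 kb downstream of one of its starts. The 9 genes without a site had highest windows from 2.02 to 2.97. In limma, 5 of the 3626 windows of 1 kb in these loci were higher in ChIP (0.138%) and 0 were lower, beside 0.0957% and 0.00267% of all windows. With the GC content removed 13 were higher (0.359%, beside 0.152%), and without ChIP replicate 2 the count was 1 (0.0276%, beside 0.0519%). Of the 20 promoters, 0 passed in either direction (0 higher and 2 lower at an unadjusted p under 0.05, at the shares over all promoters of 1.37% and 11%). The starts of *Tef* and *Usp2* with a site were not the 5′ ends of their gene records, which the promoter test used.

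**Figure D5:**
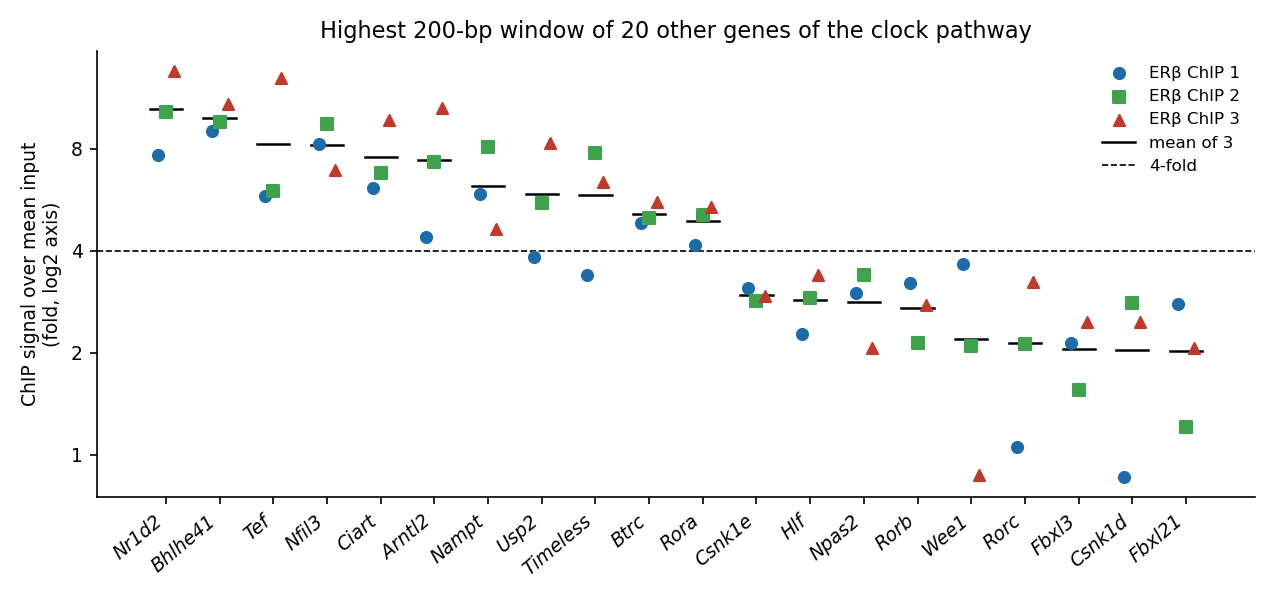
Fold of ChIP signal over the mean input (y axis, log2 scale) at the highest window of 20 other genes of the clock pathway, by ChIP library, with the mean of 3 as a bar and the 4-fold threshold as a dashed line. The 11 genes with a site are at the left, and the 9 others have means from 2.02 to 2.97.

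The total signal of the 5 libraries was 928 to 947.7 M (sum of signal times length), close to equal because the authors normalised the tracks, and the depth behind each value is unknown from the files. The tracks store means over segments, whose median length was 482 to 487 bp for ChIP but 269 bp for the first input and 520 bp for the second, which thus differ in resolution. Each ChIP replicate was a pool of its own per the methods, and which pools gave the inputs is not given in the sources used here, so p-values measure the spread between these libraries. In whole ovary, fewer cells with bound receptor and less receptor bound per cell cannot be told apart.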

How the data were processed

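Reads were mapped by the authors with STAR (no spliced alignment) on mm10, uniquely mapped reads were kept, and HOMER was used, per the labels and the methods of the study. Tool versions are not given in the sources used here. The deposited values are signal (coverage) of each library, normalised by the authors to a common total, and no replicates were pooled. Tracks of 5 libraries were read, for 3 ChIP and 2 input samples grouped by title. The members and gene lists were chosen with earlier results of these data known.

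Mean signal was taken in 200-bp windows at steps of 10 bp on the autosomes and X, and divided by the mean input, floored at its mean over bases other than N (0.368). Qualifying windows with centres within 200 bp were 1 site, read at the highest mean fold. Each of the 10 genes is named with its highest window, every site in its locus is given, other pathway genes are named where they hold a site, and sequences are printed for each site and for the *Cry2* window. The values of 1 site of the other pathway genes are not reported here. The *Per1* and *Per3* stretches and the shared *Bhlhe40* stretch were chosen after their values were seen. The annotation was GENCODE vM21 and the sequence GRCm38.p6.

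limma 3.58.1 in R 4.3.3 (lmFit, eBayes with trend) tested log2(signal + 0.5) of 3 ChIP against 2 input libraries, where the mean signal was at least 0.1, with Benjamini-Hochberg adjustment over the genome at 0.05. Scripts ran in Python 3.11.15 and were tested on simulated data. Counts could not be had from the tracks, so no count test and no counting interval was made. ChIP and input replicates share numbers 1 and 2, but their deviations from the group means correlated at 0.0362 and -0.0111, so the numbers were not taken as pairs. Windows, thresholds, inputs, floors, flanks, pseudocounts, filter, GC content, track-name group and single libraries were varied.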

Additional observations from a re-analysis of the deposited data

How the results depend on the processing

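The *Cry2* locus site was called under every alternative that kept the 50-kb flank, and the *Per2* site under all of these but 400-bp windows, the 8-fold threshold and the doubled floor. The *Arntl* locus held no site at those settings either. It also held none with fixed bins, with all 3 ChIP libraries required, or with the input of the name group. The same was true with a mean ChIP signal of at least 2 or a local 10-kb criterion required. Leaving out Input replicate 1, ChIP replicate 2 or ChIP replicate 3 removed it too. The 3 sites in 3 loci became 6 sites with 100-bp windows, 10 sites in 5 loci over 3-fold, and 1 site in 1 locus with 400-bp windows, over 8-fold or with the doubled floor. At these settings the sites of all protein-coding loci were not counted, so no background stands beside these counts. With a flank of 10 kb or the gene bodies alone, 1 site in 1 locus was left, that of *Arntl*. Leaving out 1 library gave from 2 to 6 sites in 2 to 4 loci, with 6 sites without Input replicate 1. The median highest fold of 3.27 was 2.55 with 400-bp windows and 2.64 with the doubled floor, and ran from 2.8 to 3.32 when 1 library was left out. The *Cry2* amplicon, varied after the data had been seen, had a fold from 2.85 to 4.75 when 1 library was left out.

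The count of 1 higher 1-kb window was 2 with a pseudocount of 0.1 and with the GC content removed, and 0 without the filter on low signal. With the replicate block it was 2 higher and 13 lower windows (0.145% and 0.94%, beside 0.141% and 0.132% over the genome), and 3 lower promoters, those of *Per3*, *Nr1d1* and *Dbp*, beside 5.16% of all promoters. ChIP replicate 3, whose number no input shares, has no weight in that fit, and the samples share only a number. Leaving out 1 library gave from 1 to 2 higher and 0 to 4 lower windows, and 0 to 5 lower promoters. The *Clock* promoter, at -0.16 on the log2 scale, ran from -0.32 to 0.00 when 1 library was left out. The cause of these changes was not tested. Among the values of single windows, loci and promoters, 232 kept their direction and side of the threshold, 12 newly passed it, 1 no longer passed it, 9 moved by more than the SD between replicates and 1 changed sign. The unequal resolution of the inputs limits every fold.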

Other observations

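The 13 bases shared by the *Cry2* locus site and the *Bhlhe40* window, GGGCACTGTGCCC, were looked for across the genome after this match had been seen. There were 127 copies on the autosomes and chromosome X. Of these, 8 lay inside a site (6.3%), the *Cry2* locus copy among them, where 0.0455% of all 200-bp bins passed the rule. These 2 shares count unlike units, and no test was made of them. In the 200 bp around the copy, 14 had a mean fold over 2. The median fold over all copies was 0.832, 0.864 and 0.992 in ChIP replicates 1, 2 and 3, so most copies had no more ChIP signal than input. The *Cry2* locus and *Bhlhe40* copies were found in windows chosen for their high fold, so their own place in this range was fixed by that choice.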
